A study of Homo sapiens with 24 samples.

Results

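LAMP3 encodes a membrane glycoprotein of the lysosome that marks mature dendritic cells and is also known as an interferon-inducible gene in other cells. It was chosen from earlier results on these libraries, in which both interferon-alpha (IFN) and the synthetic progestin R5020 went with higher levels. Its own differences are therefore given as estimates with standard errors, and not as tests. LAMP1 and LAMP2, taken by name as the family comparison, were tested. Together they are 3 of the 25541 entries of the deposited table. Total RNA was sequenced from 24 libraries of 2 derivatives of the human breast cancer line T47D. T47D-co is labelled as positive for progesterone receptor (PR) and T47D-Y as PR null, and each is a single line. Within each line the 4 groups were R5020 (10 nM for 6 h) after IFN (20 IU per ml for 18 h), R5020 after water, the ethanol vehicle (EtOH) after IFN, and EtOH after water, with 3 biological replicates in each. All groups grew in the same serum-containing medium with insulin.

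LAMP1 and LAMP2 are the abundant, heavily glycosylated proteins of the lysosomal limiting membrane, and LAMP2 also serves autophagy. LAMP3 has the same membrane-proximal domain but a narrower tissue range. Type I interferon acts through a cell-surface receptor, JAK kinases and the transcription factors they activate, whereas R5020 binds PR, a nuclear receptor that acts on DNA directly.

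Levels are given as scaled fragments, which are estimated sequenced fragments after 1 common scaling of the 24 libraries. The libraries held 14141306 to 33607424 estimated fragments each (median 18385812). The mitochondrial share of fragments was 0.942 to 1.07% in 4 libraries (T47D-Y EtOH water replicate 1, T47D-Y R5020 water replicates 1 and 2, and T47D-co EtOH water replicate 2) and 3.17 to 4.74% in the other 20. PGR, the gene of the progesterone receptor, had group means of 11899 to 26480 scaled fragments in T47D-co and of 454 to 693 in T47D-Y, so the line labelled PR null held PGR transcript at a low level. Luminal breast markers such as GATA3 (11208 to 22061) and KRT19 (16296 to 24532) were high in all 24 libraries, and TFF1 lay between 0 and 11.8.

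In T47D-co both agents went with more LAMP3, and the highest level came with both. LAMP3 held 2655, 2586 and 2476 scaled fragments in the 3 T47D-co libraries given R5020 and IFN. R5020 alone gave 1544, 1478 and 1591, and IFN alone gave 936, 876 and 977. In the libraries given neither agent it held 166, 186 and 214. No library of any of these 4 groups overlapped another group. The group means were 2572 ± 89.9 (both agents), 1538 ± 56.5 (R5020 alone), 929.9 ± 50.6 (IFN alone) and 189 ± 24 (neither) (SD, n = 3 each). In bulk RNA a larger share of cells with the transcript and more transcript per cell cannot be told apart.

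The log2 difference of LAMP3 with R5020 in T47D-co without IFN was 3.02 ± 0.08 (SE), an 8.14-fold ratio of group means. With IFN present the R5020 difference was 1.47 ± 0.08, or 2.77-fold. IFN without R5020 gave 2.30 ± 0.08, or 4.92-fold, and IFN on top of R5020 gave 0.74 ± 0.08, or 1.67-fold. Both agents against neither gave 3.77 ± 0.08, a 13.6-fold ratio. The R5020 and IFN differences share the EtOH water libraries and are set side by side without being correlated. Among the 20159 genes tested, LAMP3 ranked 176 from the highest for R5020 without IFN and 26 for IFN without R5020. These comparisons chose the gene, so the ranks describe it and support nothing.

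In T47D-Y the IFN difference was present and an R5020 difference was not seen. LAMP3 held 1336, 1456 and 1432 scaled fragments in T47D-Y libraries given R5020 and IFN. R5020 alone gave 254, 264 and 285, and IFN alone gave 1313, 1414 and 1419. With neither agent it held 293, 246 and 299. All 6 libraries given IFN stood above all 6 given water, while R5020 and EtOH libraries overlapped in both IFN states. The group means were 1408 ± 63.5 (both agents), 268 ± 15.9 (R5020 alone), 1382 ± 59.9 (IFN alone) and 279 ± 28.7 (neither) (SD, n = 3 each).

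The log2 difference of LAMP3 in T47D-Y was 2.31 ± 0.08 with IFN among EtOH libraries and 2.39 ± 0.08 among R5020 libraries, or 4.95-fold and 5.26-fold on the linear scale. For R5020 it was -0.06 ± 0.08 among water libraries (95% interval -0.21 to 0.10) and 0.03 ± 0.08 among IFN libraries (-0.13 to 0.18). LAMP3 was thus higher with either agent in T47D-co, and in T47D-Y with IFN and not beyond the spread with R5020. The R5020 water group of T47D-Y contains 2 of the 4 libraries with a low mitochondrial share. Without those 4 libraries, which leaves 1 library in that group, the R5020 difference was 0.072 ± 0.11, and in T47D-co without IFN it was 3.02 ± 0.09.

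**Figure D1:**
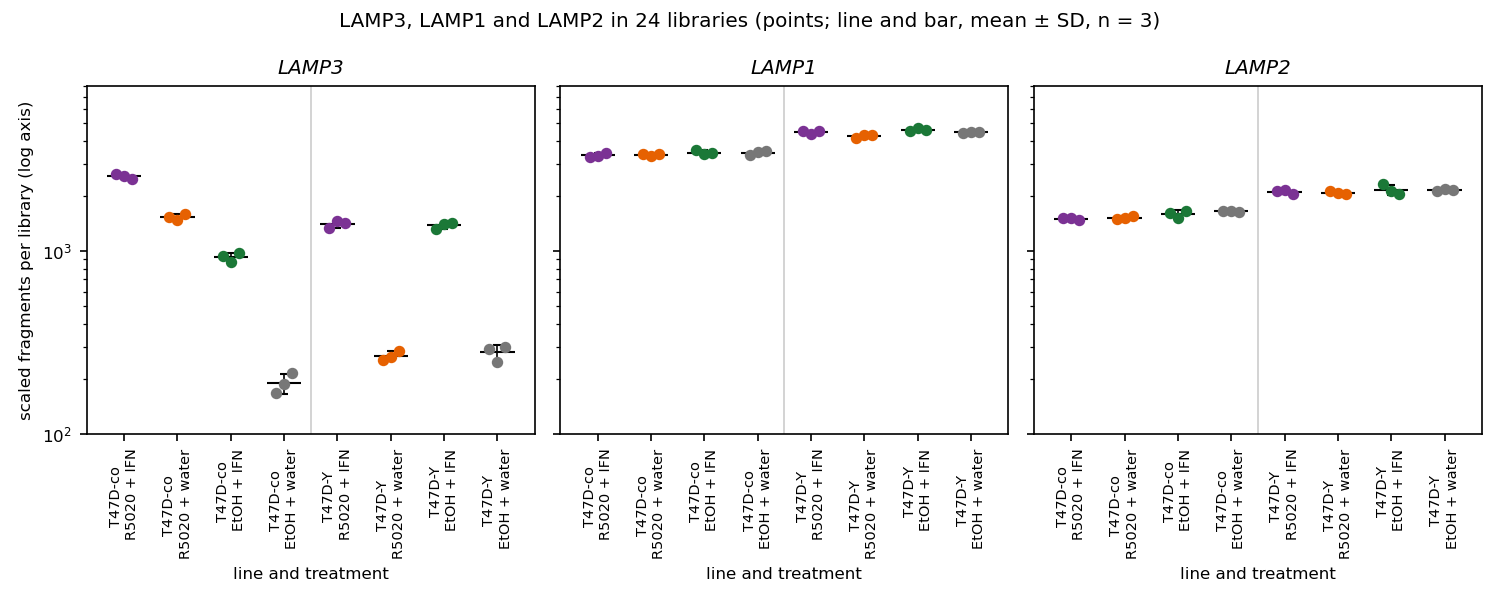
Scaled fragments (log axis) of LAMP3, LAMP1 and LAMP2 in each of the 24 libraries, by line and treatment, with a line at the mean and a bar of 1 SD (n = 3); values are not divided by gene length, so heights compare groups and not genes. LAMP3 spans 166 to 2655 scaled fragments, while LAMP1 lies between 3269 and 4703 and LAMP2 between 1476 and 2322.

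Set against each other, the lines had unlike LAMP3 differences with R5020 and near-equal log2 differences with IFN. T47D-co minus T47D-Y, the R5020 difference without IFN was 3.08 ± 0.11 on the log2 scale, and the IFN difference without R5020 was -0.01 ± 0.11 (95% interval -0.23 to 0.21). On the linear scale IFN without R5020 added 741 ± 32.4 scaled fragments in T47D-co and 1103 ± 38.4 in T47D-Y (SE). Without treatment LAMP3 was lower in T47D-co (189 ± 24) than in T47D-Y (279 ± 28.7, SD, n = 3 each), a log2 difference of -0.56 ± 0.08. The near-equal log2 answers to IFN depended on the common scaling. On the values as deposited, where the blocks of each line and IFN state carry separate scales, the line difference of the IFN answer was 0.29.

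The level of LAMP3 with both agents was set beside the sum of the separate changes and the product of the separate folds. On the linear scale of T47D-co, R5020 added 1349 ± 35.5 scaled fragments without IFN and 1643 ± 59.6 with it, and IFN added 741 ± 32.4 without R5020 and 1035 ± 61.3 with it (SE). The sum of the separate changes predicts 2279 ± 46 (SE), and the observed 2572 ± 51.9 (SE) was 113% of it. The difference, 294 ± 69.3 (SE), was 102 on the values as deposited and 199 with libraries scaled to equal totals. The product of the separate folds predicts 7566, and the observed level was 34.0% of that. Accordingly the R5020 by IFN interaction of LAMP3 in T47D-co was -1.56 ± 0.11 on the log2 scale, rank 19998 of 20159 from the highest. The level with both agents thus lay slightly above the sum and far below the product.

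In T47D-Y the sum and the product are nearly the same number, since the R5020 ratio without IFN is 0.959. The sum predicts 1370.4 ± 39.4 (SE) and the product 1328, against an observed 1408 ± 36.7 (SE), which is 106% of the product. The interaction was 37.4 ± 53.9 scaled fragments (SE) and 0.08 ± 0.11 on the log2 scale.

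**Figure D2:**
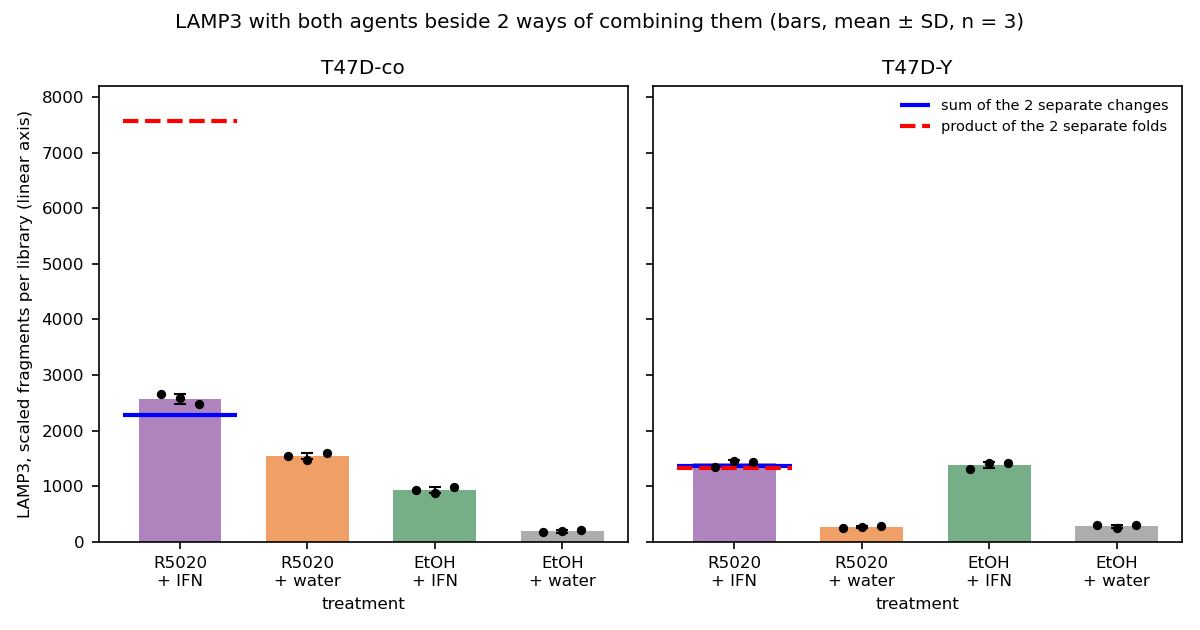
LAMP3 in scaled fragments per library (linear axis from 0) in the 4 treatments of each line, as bars of the mean with 1 SD (n = 3) and a point per library. Over the bar with both agents, the solid line is the sum of the separate changes (2279 in T47D-co) and the dashed line the product of the separate folds (7566); the bar with both agents, at 2572, stands just above the sum in T47D-co.

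Counting error was small beside these differences. The fewest LAMP3 fragments before scaling were 173 (exact Poisson 95% interval 148 to 201), in T47D-co EtOH water replicate 1. The most were 2529 (2431 to 2630), in T47D-co R5020 IFN replicate 2. These intervals cover counting error only. The spread between replicates of a group was 3.49 to 12.7% of the mean. In the order of group means, the neighbouring groups that overlapped were T47D-Y R5020 IFN with T47D-Y EtOH IFN, and T47D-Y EtOH water with T47D-Y R5020 water. T47D-co R5020 water (1538) stood 1.09 times above T47D-Y R5020 IFN (1408) with no overlap, and T47D-co EtOH IFN (929.9) stood between the T47D-Y groups given IFN and those given water.

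LAMP3 lies on chromosome 3 (hg19 chr3:182840000-182881627, minus strand), LAMP1 on chromosome 13 (hg19 chr13:113951555-113977987, plus strand) and LAMP2 on chromosome X (hg19 chrX:119561681-119603220, minus strand). Each locus holds no other entry of the table. GENCODE v29 gives LAMP3 4 coding transcripts, LAMP1 1 and LAMP2 3. The values are for whole genes and do not separate the transcripts. LAMP5 was not analysed here as a gene of its own, and neither was CD68, which lies in a merged entry.

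LAMP1 did not follow LAMP3. In T47D-co both agents gave 3269, 3310 and 3441 scaled fragments and R5020 alone gave 3386, 3317 and 3381. IFN alone gave 3561, 3378 and 3436 there, and libraries given neither held 3336, 3496 and 3526. These groups overlapped. In T47D-Y both agents gave 4537, 4388 and 4525, and R5020 alone 4176, 4329 and 4290. IFN alone gave 4561, 4703 and 4574 in T47D-Y, and libraries given neither held 4446, 4472 and 4506. In T47D-Y the libraries given IFN lay above those given water within each hormone state. Those given R5020 lay below those given EtOH within each IFN state. The share of all genes that separate in this way was not counted. Of the 8 comparisons of an agent with its control, 0 were called for LAMP1 (limma, adjusted over all genes tested; 2 at an unadjusted p under 0.05). The share of all genes called was 56.5% for R5020 in T47D-co without IFN and 58.2% with it, 0.218% and 0.298% for R5020 in T47D-Y without and with IFN, 1% and 11.3% for IFN in T47D-co without and with R5020, and 4.44% and 4.77% for IFN in T47D-Y without and with R5020.

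For LAMP1 with IFN the log2 difference was 0.00 ± 0.03 in T47D-co (95% interval -0.06 to 0.06, limma adjusted p = 0.995) and 0.04 ± 0.03 in T47D-Y (-0.02 to 0.10, adjusted p = 0.502), both without R5020. For R5020 without IFN it was -0.04 ± 0.03 in T47D-co (-0.10 to 0.02, adjusted p = 0.278) and -0.07 ± 0.03 in T47D-Y (-0.13 to -0.01, adjusted p = 0.9997). In the T47D-co R5020 comparison LAMP1 was called lower when libraries were scaled to equal totals (-0.14) or quantile normalized (-0.15). LAMP1 was lower in untreated T47D-co than in untreated T47D-Y, at 3453 ± 102 against 4475 ± 30.2 (SD, n = 3 each), a log2 difference of -0.37 ± 0.03 (limma adjusted p = 2.06e-11).

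LAMP2 was also nearly level. In T47D-co both agents gave 1524, 1517 and 1476 scaled fragments and R5020 alone gave 1505, 1524 and 1546. IFN alone gave 1617, 1519 and 1664, and libraries given neither held 1664, 1666 and 1636. The R5020 water libraries all lay below the untreated ones. LAMP2 fell by 0.12 ± 0.04 on the log2 scale with R5020 in T47D-co without IFN (limma adjusted p = 0.0117), where 56.5% of all genes were called. Without the 4 libraries of low mitochondrial share it was -0.11 (adjusted p = 0.0511). With both agents against neither it fell by 0.14 ± 0.04 (adjusted p = 0.00377), where 59.4% of all genes were called.

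In T47D-Y, LAMP2 held 2137, 2147 and 2054 scaled fragments with both agents and 2118, 2067 and 2040.5 with R5020 alone. It held 2322, 2132 and 2050.3 with IFN alone, and 2133, 2178 and 2163 with neither. As in T47D-co, the R5020 water libraries all lay below the untreated ones, but the share of all genes that separate in this way was not counted for either line. In T47D-Y this log2 difference was -0.06 ± 0.04, and R5020 water replicates 1 and 2 had a low mitochondrial share. Of the 4 comparisons of an agent with its control there 0 were called for LAMP2 (limma; 0 at an unadjusted p under 0.05). With IFN and without R5020 the log2 difference was 0.00 ± 0.04 in T47D-Y (95% interval -0.08 to 0.09) and -0.05 ± 0.04 in T47D-co (-0.13 to 0.03), with limma adjusted p = 0.973 and 0.824. Untreated T47D-co was lower than untreated T47D-Y (1655 ± 16.8 against 2158 ± 22.9, SD, n = 3 each), with a log2 difference of -0.38 ± 0.04 (adjusted p = 3.53e-09). All 3 genes were thus lower in untreated T47D-co, a comparison in which 63.2% of all genes were called, 29.7% higher and 33.5% lower. The R5020 by IFN interaction was not called for LAMP1 or LAMP2 in T47D-co (1.01% of all genes called) or T47D-Y (0% called). Neither was the line difference of their R5020 answer (44.6% called).

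**Figure D3:**
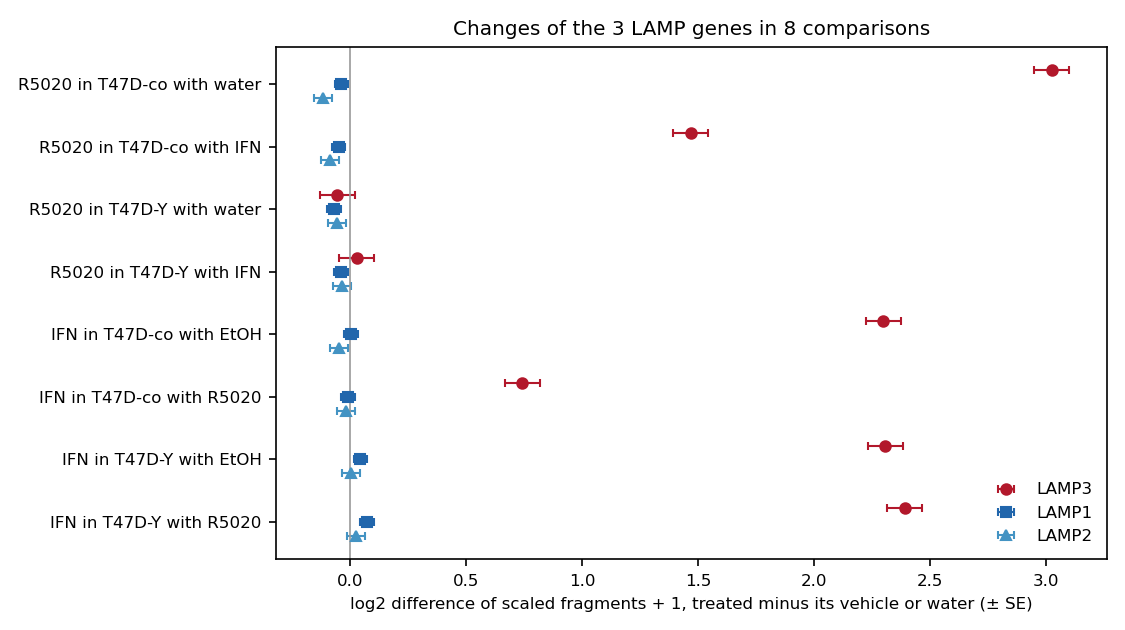
Log2 differences of scaled fragments + 1 (x axis, with SE bars) of LAMP3, LAMP1 and LAMP2 in 8 comparisons of an agent with its control. LAMP3 lies between 0.74 and 3.02 in the 6 comparisons with IFN or with R5020 in T47D-co, whereas LAMP1 and LAMP2 lie between -0.12 and 0.07 in all 8.

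Divided by exon length, the family changed its order in T47D-co. Per kilobase of GENCODE v29 exon sequence, LAMP3 had 674 ± 23.6 scaled fragments with both agents and 49.5 ± 6.30 with neither. LAMP1 had 582 ± 15.7 and 602 ± 17.7 on the same scale, and LAMP2 had 272 ± 4.63 and 299.6 ± 3.05 (SD, n = 3 each). The level of LAMP1 was 0.863 times that of LAMP3 with both agents and 12.1 times with neither. In T47D-Y it was 2.12 times with both agents and 10.7 times with neither. LAMP2 was 0.404 times LAMP3 with both agents in T47D-co, and 1.04 times in T47D-Y. The length used joins the exons of all transcripts, so these ratios depend on which transcripts the cells make.

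The promoter window of LAMP1 is shown because CACGTG, the core of the element that the lysosomal regulator TFEB binds, is read there many times in a family member that was called in 0 of the 8 agent comparisons. The window is the 250 bases before the annotated start (RefSeq, GRCh38.p14 chr13:113296989-113297238, plus strand), with each CACGTG in capitals.
LAMP1: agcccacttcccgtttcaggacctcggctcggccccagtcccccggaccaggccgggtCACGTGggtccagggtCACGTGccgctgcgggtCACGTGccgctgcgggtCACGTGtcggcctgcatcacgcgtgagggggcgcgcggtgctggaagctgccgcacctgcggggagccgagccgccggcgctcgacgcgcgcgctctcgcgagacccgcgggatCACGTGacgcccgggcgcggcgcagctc
CACGTG, which reads the same on both strands, occurred 5 times. It was found in the windows of 7.73% of 27305 genes with a promoter and of 17 of 62 genes of the lysosomal lists. The progestin list had CACGTG for 5 of 17 genes, so the motif was not particular to lysosomal genes. GAAANNGAAA, searched on both strands as the core of the interferon-stimulated response element, did not occur in the LAMP1 window. It was found for 3.71% of all genes and for 20 of 27 antiviral genes. LAMP3 and LAMP2 had no entry in the promoter table. A match describes letters and is not a bound site.

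Some genes beside LAMP3 rose with R5020 in T47D-co, where 56.5% of all genes were called. With IFN alone none of those tested was called, where 1% of all genes were called in T47D-co and 4.44% in T47D-Y. The neighbourhood was not tested against these shares. Within 500 kb of the LAMP3 locus lie 9 other entries, of which 8 were tested. With R5020 in T47D-co without IFN 4 of the 8 rose and 0 fell, against 26.6% of all genes called higher and 30% called lower. MCCC1, an enzyme subunit of leucine breakdown whose locus ends just before that of LAMP3, reached 11437 ± 276 scaled fragments with R5020, against 5242 ± 74.5 with EtOH (SD, n = 3 each), a log2 difference of 1.13 ± 0.03 (limma adjusted p = 3.01e-21). The others that rose were its antisense gene MCCC1-AS1 (1.24 ± 0.37), DCUN1D1, which acts in cullin neddylation (0.41 ± 0.04), and KLHL24, a ubiquitin ligase adaptor (0.70 ± 0.05). MCCC1 and MCCC1-AS1 share a locus, and without a stated strand their fragments cannot be told apart.

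The other tested neighbours were not called with R5020 in T47D-co. They gave -0.02 ± 0.14 for ATP11B, a phospholipid flippase, -0.31 ± 0.27 for B3GNT5, a glycosyltransferase, 0.07 ± 0.08 for MCF2L2 and -0.12 ± 0.14 for RP11-393B14.1. In T47D-Y 0 of the 8 were called with R5020 (limma; 0 at an unadjusted p under 0.05), against 0.203% of all genes called higher and 0.0149% called lower. With IFN without R5020 1% of all genes were called in T47D-co and 4.44% in T47D-Y. Of the 8 neighbours 0 were called in either line (limma, with 3 in T47D-co and 1 in T47D-Y at an unadjusted p under 0.05). For example, MCCC1 gave -0.03 ± 0.03 in T47D-co and 0.00 ± 0.03 in T47D-Y. In T47D-co given IFN, R5020 raised 6 of the 8 and lowered 1, against 27.5% and 30.6% of all genes. MCCC1 gave 1.24 ± 0.03, KLHL24 0.96 ± 0.05 and MCF2L2 0.56 ± 0.08 there, while RP11-393B14.1 fell by 0.36 ± 0.14. IFN on top of R5020 raised 2 of the 8 in T47D-co and lowered 0, against 7.57% and 3.69% of all genes. They were KLHL24 (0.16 ± 0.05) and MCF2L2 (0.29 ± 0.08), where LAMP3 gave 0.74 ± 0.08. ATP11B had 29.4 ± 5.76 scaled fragments in untreated T47D-co and 1712 ± 9.60 in untreated T47D-Y (SD, n = 3 each). Between the untreated lines 63.2% of all genes were called, so a line difference in a neighbour is not particular to this region. The neighbours called in that comparison were not counted.

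No gene had a group profile very close to that of LAMP3. Likeness was measured over the 8 group means of log2(scaled fragments + 1), each profile centred on its own mean, as the root mean square difference from LAMP3. Of 12441 eligible genes 0 came within 0.5 and 45 within 1, while LAMP3 itself varied by 1.33 about its mean. The 10 nearest were TRIM14 (0.69), DHX58 (0.79), SP110 (0.79), PARP9 (0.79), SAMHD1 (0.84), RP11-265D17.2 (0.87), EREG (0.90), PHOSPHO1 (0.91), PARP12 (0.91) and RP1-223B1.1 (0.92). Since these genes were chosen for their profile, their values are a description.

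The nearest genes came close to LAMP3 in different ways. TRIM14, an adaptor in antiviral signalling, had means of 1801 scaled fragments with both agents in T47D-co, 1495 with R5020, 807 with IFN and 484 with neither. In T47D-Y it had 1038, 517, 1020.4 and 495 in the same order of treatments. Its level with both agents in T47D-co was close to the sum of the separate changes, 1818. DHX58, a regulator of RIG-I-like sensing, and SAMHD1, a dNTP triphosphohydrolase that restricts viruses, were highest in groups given IFN. SAMHD1 had means of 1529.7 with both agents in T47D-co, 901 with R5020, 1574 with IFN and 778 with neither. EREG, an EGF receptor ligand, and PHOSPHO1, a phosphatase of bone mineralization, were high mainly with R5020 in T47D-co. PHOSPHO1 had 56.7 with both agents there and 62.7 with R5020, against 10.2 with IFN and 6.78 with neither.

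The promoter window of TRIM14, the nearest profile, is shown for its single GAAANNGAAA match, which reads as TTTCGGTTTC on the strand printed and stands in capitals. The window is the 250 bases before the start (RefSeq, GRCh38.p14 chr9:98119223-98119472, minus strand).
TRIM14: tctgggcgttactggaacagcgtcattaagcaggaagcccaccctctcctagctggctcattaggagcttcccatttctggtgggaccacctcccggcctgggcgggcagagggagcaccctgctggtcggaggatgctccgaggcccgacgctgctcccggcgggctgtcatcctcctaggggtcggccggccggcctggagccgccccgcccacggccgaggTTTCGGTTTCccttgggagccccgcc
Of the 10 nearest genes 7 had a promoter in the table, and 3 of the 7 (TRIM14, PARP9 and PARP12) held this motif, with no CACGTG. The palindromic core of the hormone response element, ACANNNTGT, was found for 0 of the 7 and for 5.64% of all genes. It was found for 1 of 17 genes of the progestin list, near the share of all genes. The motif therefore did not mark progestin targets in these windows.

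**Figure D4:**
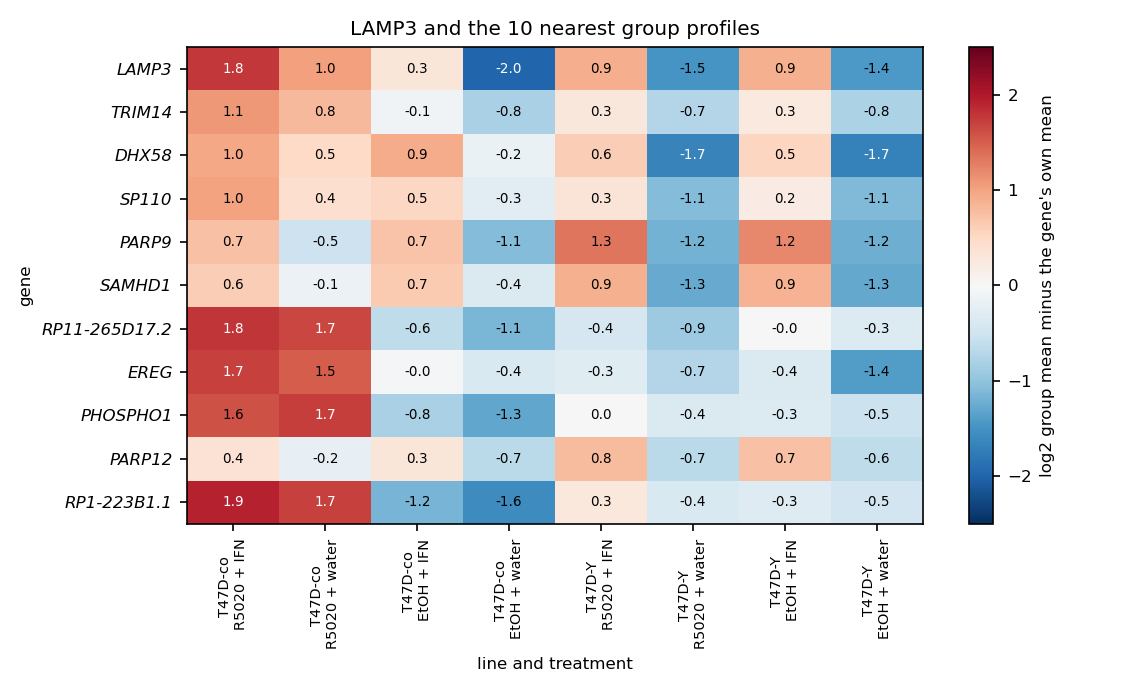
Group means of log2(scaled fragments + 1) minus each gene's own mean over the 8 groups (colour and printed value), for LAMP3 (top row) and the 10 nearest profiles in order of likeness. LAMP3 runs from 1.78 with both agents in T47D-co to -1.99 with neither, and the 5 nearest rows have their highest value in a group given both agents, while EREG and PHOSPHO1 lie between 1.52 and 1.74 in both R5020 groups of T47D-co.

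The answer of LAMP3 to R5020 in T47D-co, 3.02, lay above that of every gene tested on the antiviral list (-1.85 to 2.27). That answer chose LAMP3, so its place beside the list describes it and supports nothing. The list does not hold every interferon gene. TRIM14, outside it and itself picked for its profile, had 1495 scaled fragments with R5020 and 484 with neither agent. Of the antiviral list, which holds interferon-stimulated genes without LAMP3, 32 of 33 were tested. With R5020 in T47D-co without IFN 25 of them fell and 3 rose, against 30% and 26.6% of all genes, and the median log2 difference was -0.85 (all genes, -0.04). The 3 that rose were HERC5, the ligase that attaches ISG15 (2.27 ± 0.12), its relative HERC6 (0.22 ± 0.08) and PARP9 (0.55 ± 0.11). Of the others, SAMD9L, a translation inhibitor, fell by 1.85 ± 0.33, IFIT1, which binds viral RNA caps, by 1.70 ± 0.30, and MX1, an antiviral GTPase, by 0.56 ± 0.14. HERC6 overlapped between R5020 and EtOH libraries. In T47D-Y 0 of the 32 were called with R5020 (limma, with 0 at an unadjusted p under 0.05), where 0.218% of all genes were called.

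With IFN the antiviral genes and LAMP3 both stood high, but the lines differed for the list. In T47D-co without R5020 29 of 32 antiviral genes rose and 0 fell, against 0.57% and 0.432% of all genes, with a median of 1.79. In T47D-Y 31 rose and 0 fell, against 2.51% and 1.93%, with a median of 3.48. IFI6, an interferon-induced mitochondrial protein, gave log2 differences of 3.49 ± 0.09 in T47D-co and 5.28 ± 0.09 in T47D-Y. Those of ISG15, a ubiquitin-like modifier, were 2.97 ± 0.15 and 5.41 ± 0.15. In the test of the line difference of the IFN answer 18 of 32 antiviral genes were called lower in T47D-co and 0 higher, against 0.313% and 0.0645% of all genes. The median of the list was -1.58, beside -0.01 ± 0.11 for LAMP3. The list ran from -2.82 to 1.26, a range that holds LAMP3, and 14 of the 32 antiviral genes were not called. Untreated T47D-co had more of several of these transcripts, for example 299 scaled fragments of IFI6 and 65.5 of ISG15, against 90.8 and 12.2 in untreated T47D-Y.

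The R5020 by IFN interaction of LAMP3 in T47D-co also lay outside the range of the antiviral list, -0.76 to 0.90. LAMP3 was chosen for rising with both agents. Its sum of separate changes (2279) lies below the product of folds (7566), so addition alone gives a negative log2 interaction. Most antiviral genes fell with R5020, so the contrast partly follows from the choice and the scale and is a description. In T47D-co 0 of the 32 antiviral genes were called (limma; 6 at an unadjusted p under 0.05), where 0.873% of all genes were called higher and 0.134% lower, and the list's median was 0.00 on the log2 scale, against -1.56 ± 0.11 for LAMP3. Both agents against neither in T47D-co raised 20 of 32 antiviral genes and lowered 1, against 28.1% and 31.3% of all genes, with a median of 1.03. LAMP3 gave 3.77 in the same comparison. Of the interferon signalling list 9 of 11 genes were tested. With IFN without R5020 3 rose in each line and 0 fell, against 0.57% of all genes called higher in T47D-co and 2.51% in T47D-Y, among them IRF7, a transcription factor (0.73 ± 0.10 in T47D-co, 1.51 ± 0.10 in T47D-Y). Of the same 9, 3 rose and 4 fell with R5020 in T47D-co without IFN, against 26.6% and 30% of all genes. IRF1, another interferon-induced transcription factor, rose by 1.02 ± 0.13, and IRF7 fell by 0.56 ± 0.10.

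Of the list of classical progestin targets 16 of 20 genes were tested. With R5020 in T47D-co without IFN 15 of the 16 rose and 0 fell, against 26.6% and 30% of all genes, with a median of 2.47, beside 3.02 for LAMP3. KLF15, a Kruppel-like factor, rose by 5.11 ± 0.17, SGK1, a hormone-induced kinase, by 4.86 ± 0.11, FKBP5, a receptor co-chaperone, by 3.38 ± 0.04 and ZBTB16, a zinc finger repressor, by 9.22 ± 0.31. In T47D-Y 5 of the 16 rose and 0 fell, against 0.203% and 0.0149% of all genes, among them ZBTB16 (3.56 ± 0.31), SGK1 (0.94 ± 0.11) and FKBP5 (0.79 ± 0.04), where LAMP3 gave -0.06 ± 0.08. In the test of the line difference 15 of the 16 were called higher in T47D-co, against 21.6% of all genes called higher and 23% lower. With IFN 0 of the 16 were called in either line without R5020 (limma; 4 at an unadjusted p under 0.05 in each line).

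The lysosomal genes as a whole did not move with LAMP3. The lists of lysosomal membrane proteins, lysosomal enzymes and subunits of the proton pump (V-ATPase) had 75 of 87 genes tested. With IFN in T47D-co without R5020 1 rose, LIPA, the acid lipase (0.37 ± 0.05), and 0 fell (limma; 6 at an unadjusted p under 0.05), against 0.57% and 0.432% of all genes. In T47D-Y 2 rose and 3 fell, against 2.51% and 1.93% of all genes, among them LIPA (0.37 ± 0.05), SCARB2, a lysosomal membrane receptor (0.20 ± 0.03), CD63, a tetraspanin (-0.18 ± 0.05), and the protease CTSH (-0.22 ± 0.06). The count of 3 that fell was 0 without the 4 libraries of low mitochondrial share and between 0 and 2 with any 1 library of these groups left out. These include T47D-Y EtOH water replicate 1, without which 1 fell, and EtOH water replicate 2, EtOH IFN replicate 1 and EtOH IFN replicate 3, without each of which 0 fell.

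With R5020 in T47D-co without IFN 23 of the 75 lysosomal genes rose and 26 fell, against 26.6% and 30% of all genes, and the median was -0.04, as for all genes. The changes ran both ways and were small beside 3.02 for LAMP3. CTSH reached 1262 scaled fragments with R5020, against 469 with EtOH, a log2 difference of 1.43 ± 0.06, the highest of the 75. NPC1, a cholesterol exporter, rose by 0.61 ± 0.05, and TPCN1, a lysosomal channel, fell by 0.42 ± 0.06. CTSK, a collagen-degrading protease, fell by 1.20 ± 0.17, the lowest of the 75. The pump subunit ATP6V0A2 rose by 0.85 ± 0.07, and ATP6V0A4, with under 10 scaled fragments in both groups, fell by 1.00 ± 0.26. In T47D-Y 0 of the 75 were called with R5020 (limma, with 3 at an unadjusted p under 0.05), where 0.218% of all genes were called.

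Among regulators of lysosome number and autophagy, 22 of 24 genes were tested. With R5020 in T47D-co without IFN 14 rose and 5 fell, against 26.6% and 30% of all genes, with a median of 0.35. MITF and TFEB, related transcription factors of lysosomal genes, rose by 1.34 ± 0.14 and 0.98 ± 0.13, and RRAGD, a GTPase of nutrient sensing at the lysosome, by 1.10 ± 0.13. TFEB, like HERC6 and PARP9 above, was picked for mention after its value was seen. With IFN without R5020 0 of the 22 rose and 1 fell in T47D-co, against 0.57% and 0.432% of all genes, and 1 rose and 2 fell in T47D-Y, against 2.51% and 1.93%. TP53INP2, an autophagy cofactor, fell in both, by 0.36 ± 0.08 in T47D-co and by 0.52 ± 0.08 in T47D-Y, and WIPI1, an early autophagosome protein, fell by 0.25 ± 0.07 in T47D-Y.

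LAMP3 is also known as a gene of the unfolded protein response, the integrated stress response and hypoxia, so those lists were counted. Of the 23 stress response genes 11 rose and 5 fell with R5020 in T47D-co without IFN, against 26.6% and 30% of all genes, with a median of 0.11. CHAC1, which degrades glutathione, reached 58.3 scaled fragments with R5020, against 6.67 with EtOH (2.97 ± 0.30), and ERN1, a sensor of unfolded protein, rose by 1.15 ± 0.08. Of 14 tested hypoxia genes (15 in the list) 9 rose and 3 fell, against the same shares of all genes, with a median of 0.33. NDRG1 rose by 1.78 ± 0.10 and BNIP3, a mitophagy receptor, by 1.16 ± 0.07. With IFN without R5020 1 of the 23 stress genes rose in T47D-co, against 0.57% of all genes. It was HSPA5, the main chaperone of the endoplasmic reticulum (0.12 ± 0.03). In T47D-Y HSPA5 rose (0.13 ± 0.03) and DDIT4, an inhibitor of growth signalling, fell by 0.28 ± 0.07. Of all genes 2.51% were called higher and 1.93% lower there. Of the 14 hypoxia genes 0 were called with IFN without R5020 in either line (limma; 2 of 14 in T47D-co and 4 in T47D-Y at an unadjusted p under 0.05). With R5020 in T47D-Y 0 of the 23 stress genes were called (limma, with 1 at an unadjusted p under 0.05). NDRG1 was the 1 hypoxia gene that rose (0.65 ± 0.10). In that comparison 0.218% of all genes were called.

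**Figure D5:**
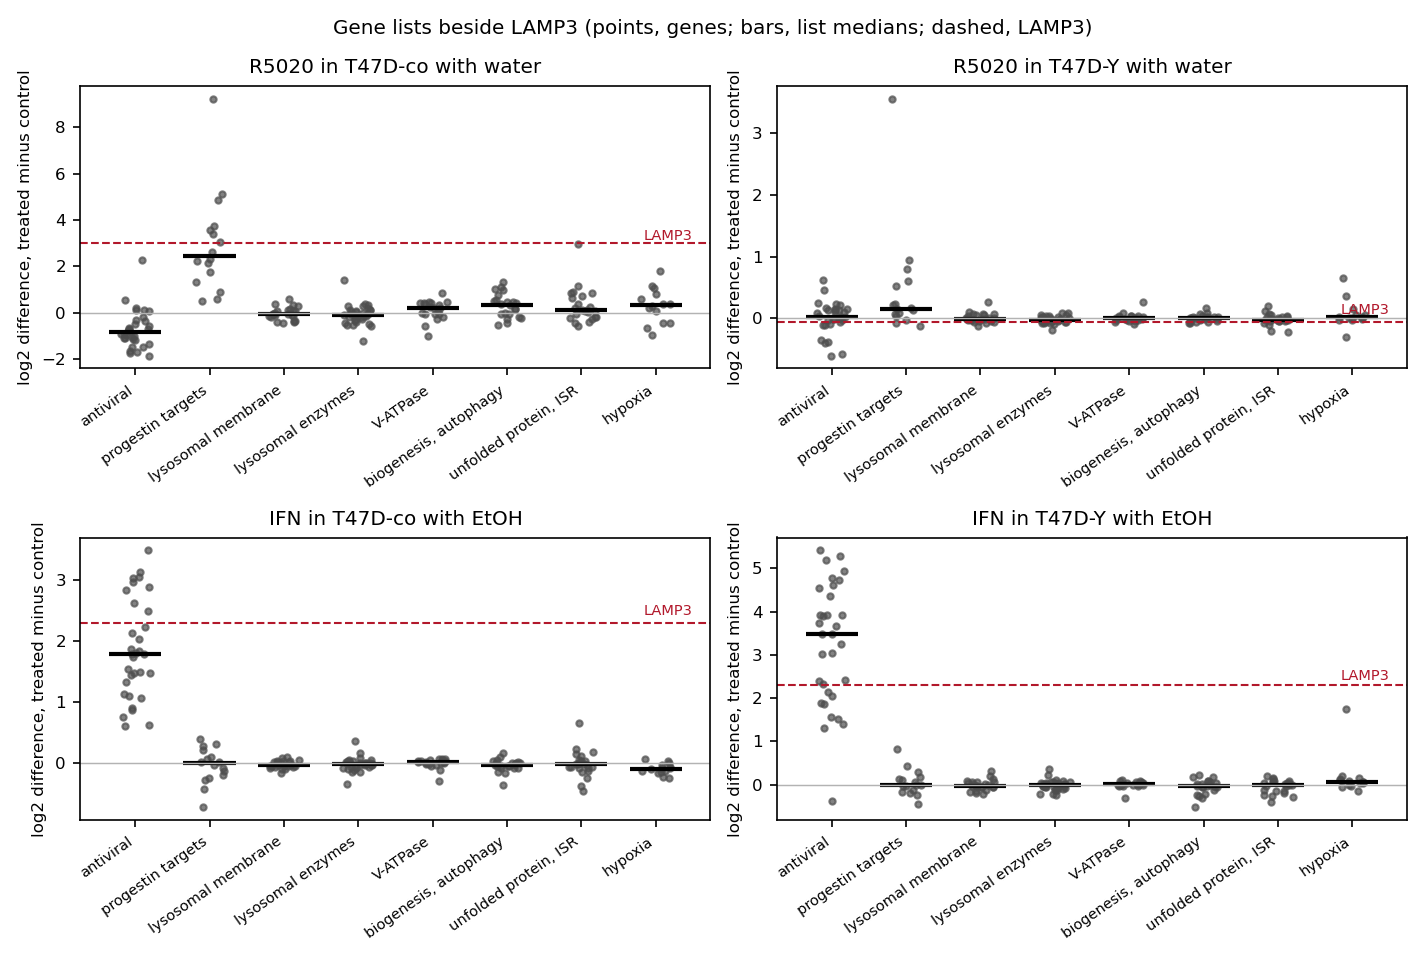
Log2 differences, treated minus control, of the tested genes of 8 lists (points, with a bar at each list's median) beside LAMP3 (dashed line), in 4 panels with y axes of their own. LAMP3 lies at 3.02 with R5020 in T47D-co, near the progestin targets (median 2.47), and at 2.30 and 2.31 with IFN, where the antiviral medians are 1.79 (T47D-co) and 3.48 (T47D-Y) and the lysosomal genes lie between -0.33 and 0.37 with IFN.

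Because LAMP3 marks mature dendritic cells and alveolar type 2 cells, the markers of both were read in every library. Of 18 dendritic cell markers 13 were in the table, and 4 of these were under 10 scaled fragments in every library. The leukocyte gene PTPRC was at most 9.21. The summed level of the 13 was 364 to 383 in T47D-co with both agents, 409.6 to 456 with R5020, 239 to 285 with IFN and 258 to 302 with neither, and 822 to 937 over all T47D-Y libraries. In T47D-co with R5020 without IFN, FSCN1, an actin bundler, rose by 1.51 ± 0.12 and BATF3, a transcription factor, by 1.63 ± 0.41, while the chemokine receptor CCR7 fell by 1.50 ± 0.33 and the chemokine CCL22 by 0.45 ± 0.17. Of the 9 tested dendritic cell markers 2 rose and 2 fell in that comparison, against 26.6% and 30% of all genes. FSCN1 had 244 scaled fragments with R5020 and 84.7 with EtOH there, which was most of the rise in the sum. The sum was higher in R5020 than in EtOH libraries of T47D-co, and not higher in IFN than in water libraries of T47D-co. Its part in the R5020 difference of LAMP3 was not tested. Of 10 tested luminal markers 9 fell with R5020 in T47D-co without IFN, against 30% of all genes, and their part was not tested either. Of 8 alveolar type 2 markers 6 were in the table, with sums of 933 to 1993, nearly all from the lipid transporter ABCA3, and SFTPC was at most 7.34.

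Many of the genes named for comparison share their locus with another annotated gene, so their fragments had been divided between entries. They are NPC1, TPCN1, CD63, CTSK, LIPA, ATP6V0A4, TFEB, TP53INP2, WIPI1, DDIT4, IFI6, IFIT1, MX1, PARP9, FKBP5, ZBTB16, B3GNT5, MCF2L2, TRIM14, SP110, SAMHD1, RP11-265D17.2, ABCA3 and SFTPC beside the MCCC1 pair. Their values are less certain than those of LAMP3, LAMP1 and LAMP2.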

How the data were processed

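The tools named for these RNA sequencing libraries are TopHat2 2.0.12 and Cufflinks 2.2.1, with genome build hg19 (GRCh37), per the submitters' processing notes. Per the labels' protocols the sequencer was an Illumina MiSeq. The deposited values carry no stated unit per the file headers and were treated as a signal. For genes that share their locus with none, 97.7 to 99.0% of the deposited signal values in a library were multiples of a common step (within 0.05 of it), as estimated fragments divided by a library factor would be. Over all genes 60.1 to 63.4% were whole, so no count test was run. A common scale was set by multiplying out the steps and taking median-of-ratios factors across the 24 libraries (14209 genes averaging 50 fragments or more), because the deposited factors had been set separately for each line and IFN state.

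The table was parsed in Python 3.11.15, and log2(scaled fragments + 1) was fitted with limma 3.58.1 under R 4.3.3. The fit of 8 group means used all 24 libraries and 15 comparisons over 20159 genes reaching 10 scaled fragments in 3 or more libraries (16 residual and 8.05 prior degrees of freedom). Genes were called at a two-sided Benjamini-Hochberg adjusted p under 0.05 over all genes tested, and each adjusted p in the text is from this limma fit. The procedure was tested on simulated data. Groups came from the labels, and 28 entries under 11 repeated symbols were left out. Genes were named as the LAMP family, the entries within 500 kb of LAMP3, the 10 nearest profiles with a group mean of at least 50, up to 4 called members of each list with the largest change, of which usually the 2 largest are printed, and PGR with known targets of IFN and R5020. The members and lists were chosen with earlier results of these data known.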

Additional observations from a re-analysis of the deposited data

Results flagged for a closer look

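The genes below are those named above whose answer to IFN or to R5020 differed between the lines by the test of the difference itself (limma, adjusted over all genes). Many of them had been named for a large change in these same libraries, so their calls here describe them and support nothing. LAMP3, LAMP1 and LAMP2 are not among them, LAMP3 because it was not tested. Groups of 3 libraries are too small for a check of single outlying libraries.

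The IFN answer without R5020, T47D-co minus T47D-Y on the log2 scale, was lower in T47D-co for SAMD9L (-2.82), ISG15 (-2.44), IFIT1 (-2.35), IFI6 (-1.80), MX1 (-1.66), IRF7 (-0.78) and HERC6 (-0.66). Of all genes 0.313% were called lower and 0.0645% higher in that test.

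In the test of the line difference of the R5020 answer without IFN 21.6% of all genes were called higher and 23% lower, so a call there is common. The R5020 answer, T47D-co minus T47D-Y, was higher in T47D-co for the progestin targets ZBTB16 (5.66), KLF15 (4.96), SGK1 (3.92) and FKBP5 (2.58), and lower for PGR (-0.42). Among neighbours of LAMP3 it was higher for MCCC1-AS1 (1.66), MCCC1 (1.15), KLHL24 (0.64) and DCUN1D1 (0.41). Among interferon genes it was higher for HERC5 (2.37), IRF1 (0.81) and PARP9 (0.52) and lower for SAMD9L (-1.97), IFIT1 (-1.72), ISG15 (-0.86), MX1 (-0.67) and IFI6 (-0.38). Of the 75 lysosomal genes 16 were called higher and 18 lower, near the shares of all genes. Among those named the R5020 answer was higher for CTSH (1.51), ATP6V0A2 (0.87) and NPC1 (0.66) and lower for CTSK (-1.24), ATP6V0A4 (-0.99), TPCN1 (-0.48) and LIPA (-0.30). Among regulators of lysosomes and autophagy it was higher for MITF (1.31), RRAGD (1.03), TFEB (0.82) and WIPI1 (0.44) and lower for TP53INP2 (-0.36). Among stress and hypoxia genes it was higher for CHAC1 (3.18), BNIP3 (1.16), NDRG1 (1.14), ERN1 (1.07), DDIT4 (1.07) and HSPA5 (0.15).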

How the results depend on the processing

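LAMP3 kept the direction of every IFN difference, and of every R5020 difference in T47D-co, under all alternatives run, which were other scalings, pseudocounts of 0.5 and 10, no filter, a fit on the compared groups alone, a replicate block and each library left out. The values as deposited shift the median gene by -0.18 with IFN in T47D-co and by -0.47 in T47D-Y, and equal totals shift it by -0.10 with R5020 in T47D-co. On the deposited scale LAMP3 gave 2.12 and 0.55 with IFN in T47D-co (EtOH, R5020), 1.83 and 1.91 in T47D-Y, 3.60 and 1.85 with both agents in T47D-co and T47D-Y, -0.80 between untreated lines, 0.29 for the line difference of the IFN answer and 102 scaled fragments for the linear interaction in T47D-co. With equal totals it gave 2.92 and 1.36 with R5020 in T47D-co (water, IFN), 3.64 with both, 2.96 for the line difference of the R5020 answer and 199 for the linear interaction. Quantile normalization gave 1.35 for R5020 in T47D-co with IFN and 3.64 with both. Without the 4 libraries of low mitochondrial share, chosen after seeing the data, R5020 in T47D-Y gave 0.072, its interaction with IFN there -0.045 and the line difference of the R5020 answer 2.95.

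LAMP1 and LAMP2 took on the shift of the deposited scale. With IFN in T47D-co they gave -0.18 and -0.23 (EtOH) and -0.20 and -0.21 (R5020), in T47D-Y -0.43 and -0.47 (EtOH) and -0.41 and -0.46 (R5020), and with both agents -0.48 and -0.51 in T47D-Y and -0.21 for LAMP1 in T47D-co. Their line differences of the IFN answer were 0.26 and 0.24. With equal totals LAMP1 was called lower with R5020 in T47D-co at -0.14 (water), -0.16 (IFN) and -0.17 (both agents), LAMP2 at -0.20 (IFN), and the line difference of the R5020 answer of LAMP2 at -0.19. Quantile normalization gave -0.15, -0.19 and -0.20 for LAMP1 and -0.19 and -0.16 for LAMP2. LAMP2 with R5020 in T47D-co was -0.11 without the 4 libraries and no longer called.

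On the deposited scale 53 lysosomal genes were called lower with IFN in T47D-co, and 72 in T47D-Y with 0 called higher in T47D-Y, and 1 antiviral gene was called lower in T47D-Y. The 3 called lower in T47D-Y became 0 in a fit on the compared groups alone and 0 without the 4 libraries. Without those 4, 3 antiviral genes rose and 21 fell with R5020 in T47D-co, 27 (T47D-co) and 31 (T47D-Y) rose with IFN, and 20 lysosomal genes rose and 25 fell with R5020 in T47D-co. With single libraries left out, lysosomal genes called with IFN alone were 0 to 2 lower in T47D-Y and 1 to 2 higher in T47D-co. LAMP2 with R5020 in T47D-co given IFN ranged from -0.12 to -0.058, and was called without T47D-co EtOH IFN replicate 2. With single libraries left out LAMP3 ranged from 2.94 to 3.12 for R5020 and from 2.21 to 2.39 for IFN in T47D-co.

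Replicate numbers did not pair the libraries: correlations of same-numbered libraries were -0.08 to 0.07 over 84 pairs, 0 over 0.1. With a replicate block 11374 genes were called for R5020 in T47D-co, against 11396 without it, and 892 for IFN in T47D-Y, against 896, and no call on LAMP1 or LAMP2 changed. Depth limits weak transcripts such as ATP6V0A4 and SAMD9L, not the LAMP genes. The p-values measure the spread between biological replicates of 1 line each.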

Other observations

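Between untreated lines, 35 of the 75 lysosomal genes were higher in T47D-co and 26 lower, against 29.7% and 33.5% of all genes, with a median log2 difference of 0.14. The 3 LAMP genes were all on the lower side there, at -0.56 for LAMP3, -0.37 for LAMP1 and -0.38 for LAMP2.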
